A study of Mus musculus with 10 samples.

Results

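Tubule injury and repair genes are those that kidney tubule cells switch on when they are damaged and begin to regenerate. A list of 10 known markers of injured tubule epithelium was followed: Havcr1, Lcn2, Spp1, Clu, Vcam1, Il34, Tnfrsf12a, Sox9, Cd44 and Krt19. Every probe set whose platform annotation gives exactly 1 symbol equal to a member was taken, which gave 21 of 45101 probe sets, for 9 of the 10 genes. Spp1, the secreted phosphoprotein osteopontin, has no probe set named in the annotation used here and was not analysed.

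The measurements are Affymetrix expression arrays of kidney, 1 male C57BL/6 mouse per array, all at 30 months of age. There were 5 calorie restricted mice and 5 mice on a control diet. The sources used here do not state how severe the restriction was or when it began. Signals are on the linear MAS5 scale, in which the authors scaled every array to 1 trimmed mean. The comparison asks whether calorie restriction changed the level of these injury markers in the old kidney.

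Each difference below is a mean log2 signal of calorie restricted mice less that of controls, ± the standard error from limma (n = 5 per group). A difference was called where its p, adjusted by Benjamini-Hochberg over all 22519 tested probe sets, was under 0.05. The test took the brighter part of the array, those probe sets whose average log2 signal reached the median probe set. Of the 21 member probe sets 16 passed that filter, for 8 genes, and a gene is given by its brightest probe set. Sox9 did not pass. In bulk kidney RNA, fewer cells of a type and less RNA per cell cannot be told apart.

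A healthy tubule cell is a polarised, slowly dividing epithelial cell. After injury it loses transport proteins and displays or secretes markers such as kidney injury molecule 1 (Havcr1) and neutrophil gelatinase-associated lipocalin (Lcn2). Injured cells also make adhesion molecules and cytokines that attract and sustain leukocytes, and some take on a regenerative state marked by Sox9, Cd44 and Krt19. Cells that fail to complete repair are known for lasting expression of Vcam1.

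By brightest probe set, 3 of the 8 tested members fell in calorie restricted kidney and 0 rose. Those that fell were the adhesion molecule Vcam1, the cytokine Il34 and the receptor Tnfrsf12a. Over all 12196 genes tested, 3.02% were called lower and 3.08% higher. The median difference of the 8 members was -0.73, beside -0.0052 over all genes tested. The members and the lists below were chosen with earlier results of these data known. Havcr1, Lcn2 and Cd44 also had lower means without passing the threshold, while Clu and Krt19 differed by less than their standard errors by this probe set. Of the 16 tested member probe sets 5 were called lower and 0 higher, where 3.16% of all probe sets were lower and 2.93% higher. Centring each array on its median moved the median of all differences to -0.098, and the split of all calls was then 1218 lower and 315 higher, against 712 lower and 659 higher as reported. Under that centring 4 of the 8 members were called lower.

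Havcr1 encodes a phosphatidylserine receptor that lets injured proximal tubule cells engulf dying neighbours. Its signal was 268, 623, 508, 502 and 360.1 in calorie restricted replicates 1 to 5, against 969, 442, 923, 899.8 and 773 in control replicates 1 to 5. All 5 calorie restricted mice were below the control median, but the groups overlapped because control replicate 2 was low. Havcr1 averaged 452 ± 139 in calorie restricted and 801 ± 213 in control kidney (SD, n = 5 each). The difference was -0.83 ± 0.24, just short of the threshold (adjusted p = 0.0560, 95% interval -1.36 to -0.31). The second Havcr1 probe set, of lower signal, averaged 185 ± 47.9 in calorie restricted and 263 ± 79.5 in control kidney (-0.49 ± 0.23, adjusted p = 0.194).

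Lcn2, an iron-siderophore binding protein that injured distal nephron cells secrete, had the widest log2 spread between control mice of the 8 tested members. It stood at 1675, 1825, 1937, 1803 and 3030.4 in calorie restricted replicates 1 to 5, against 1373, 2718, 3993, 5349 and 5065 in control replicates 1 to 5. Control replicate 1 had the lowest value of all 10 mice, and the other 4 controls were above 4 of the 5 calorie restricted mice. Lcn2 averaged 2054 ± 554 in calorie restricted and 3699.6 ± 1662 in control kidney (SD, n = 5 each). The difference of -0.73 ± 0.30 did not pass (adjusted p = 0.149, 95% interval -1.38 to -0.075). It passed without control replicate 1 (-1.05, adjusted p = 0.0162). Neutrophils also make Lcn2: of 10 neutrophil markers 8 had a named probe set, 4 were tested and 0 were called, with all 4 below 0 and a median of -1.06. S100a8 and S100a9, subunits of calprotectin, had lower means without passing (-1.70 ± 0.60 and -1.69 ± 0.57, adjusted p = 0.0959 and 0.0855). Like Lcn2, both were lowest among controls in replicate 1 and highest of the calorie restricted mice in replicate 5. Their summed signal was 889 to 2158 in calorie restricted and 852 to 7116 in control kidney. Mpo, Elane, Camp and Cxcr2 were below the filter, and the part of neutrophils in the Lcn2 values was not tested.

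Clu encodes clusterin, a secreted chaperone, and its 4 probe sets did not move alike. The brightest averaged 11037 ± 934 in calorie restricted and 11162 ± 2414 in control kidney (SD, n = 5 each), with a difference of 0.0076 ± 0.13 (95% interval -0.27 to 0.29, adjusted p = 0.978). Probe sets 1437458_x_at and 1437689_x_at differed by -0.11 ± 0.16 and -0.16 ± 0.14. Names that end in x_at mark probe sets that can bind other transcripts too, and these 3 all carry it.

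The fourth Clu probe set, 1418626_a_at, stood apart. Its signal was 2820.4, 2930.3, 2619, 3253 and 3434 in calorie restricted replicates 1 to 5, against 3446, 3655, 4769, 5587 and 5878 in control replicates 1 to 5. The groups did not overlap, although the highest calorie restricted value lay close under the lowest control. The difference was -0.61 ± 0.15 (adjusted p = 0.0335). Its log2 ratio to the brightest Clu probe set, looked at after the values were seen and not tested here, was -2.12, -1.9999, -2.02, -1.71 and -1.54 in calorie restricted replicates 1 to 5. In control replicates 1 to 5 it was -1.30, -1.28, -1.33, -1.15 and -1.26. The lowest values were those of calorie restricted replicates 1 to 3, which also had the highest log2 ratios of 3' to 5' signal of Gapdh and Actb, a measure of RNA quality (2.21, 2.01 and 1.75). Calorie restricted replicates 4 and 5, at 1.24 and 1.16 on that measure, were still below all controls in the Clu ratio. The part of RNA quality in the Clu ratio was not tested. The call of 1418626_a_at was lost when any 1 of calorie restricted replicates 1, 2 and 3 or control replicates 2 to 5 was left out (-0.51 to -0.69, adjusted p 0.0504 to 0.0852).

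**Figure D1:**
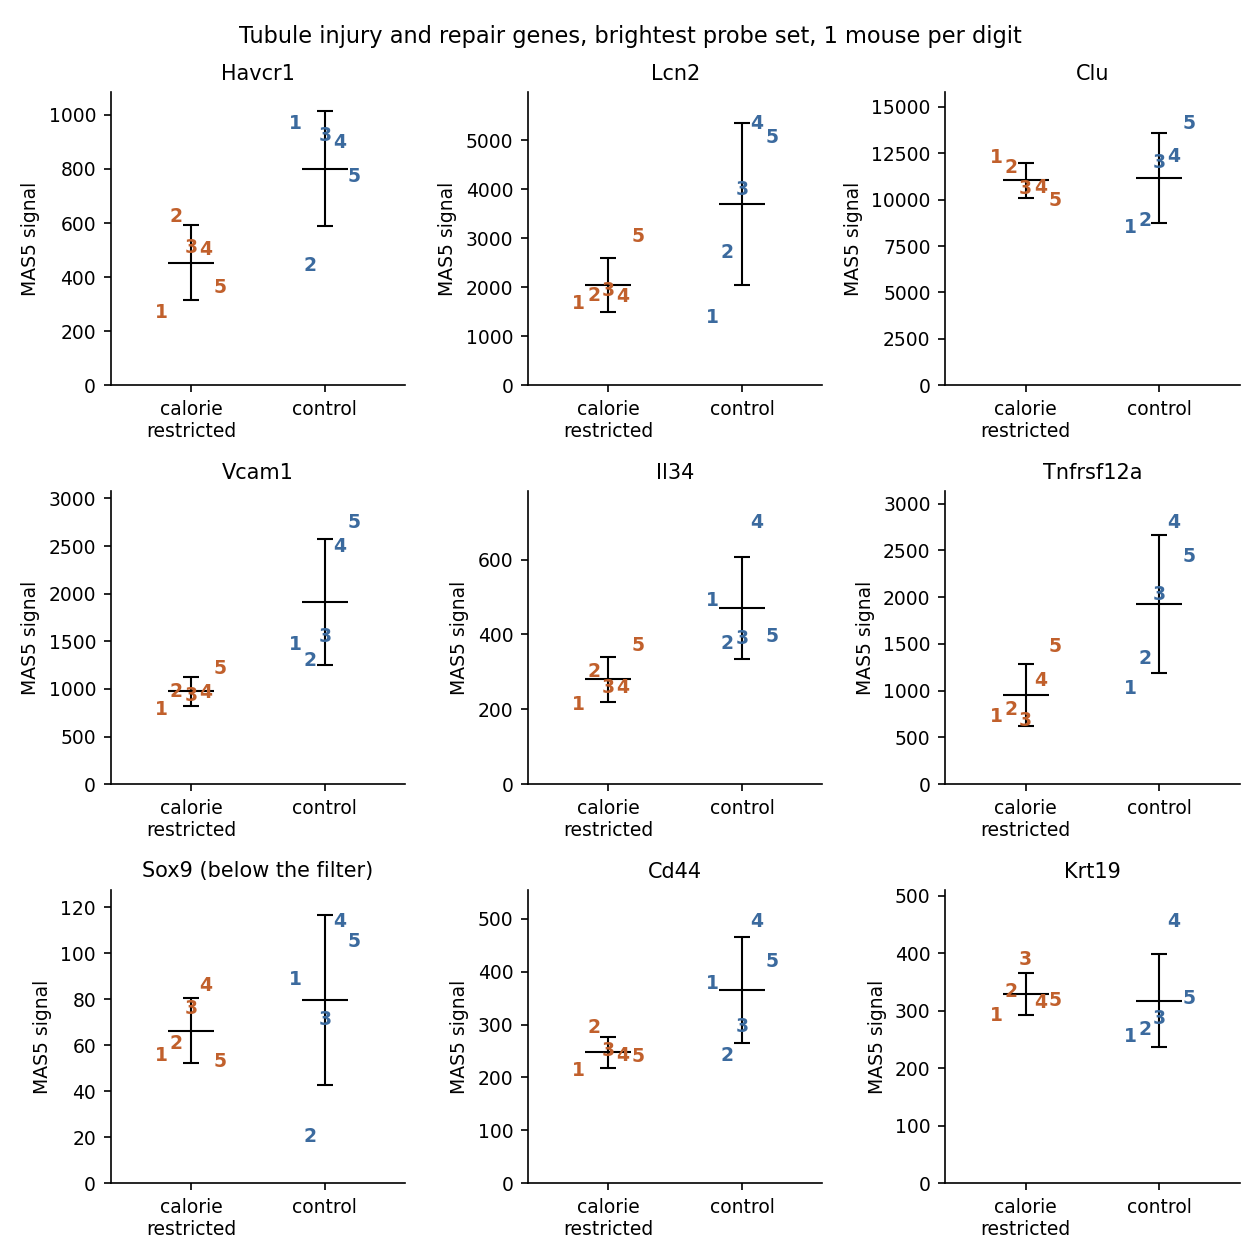
Signal of each member by diet, on a linear MAS5 scale from 0, with 1 digit per mouse giving its replicate number and bars for the mean ± SD (n = 5 per group). Vcam1 and Il34 show no overlap between calorie restricted and control mice, while control replicates 4 and 5 stand highest for Lcn2, Clu, Vcam1, Tnfrsf12a and Cd44.

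Vcam1, the vascular cell adhesion molecule that binds leukocyte integrins, was called lower by 2 of its 3 probe sets. By its brightest probe set it stood at 789, 970.0, 929, 967 and 1218 in calorie restricted replicates 1 to 5, against 1467, 1295, 1554, 2494 and 2748 in control replicates 1 to 5. Every calorie restricted mouse was below every control. Vcam1 averaged 974 ± 155 in calorie restricted and 1912 ± 660.3 in control kidney (SD, n = 5 each). The difference was -0.92 ± 0.20 (adjusted p = 0.0236).

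The other Vcam1 probe sets were lower too. Probe set 1415989_at stood at 247, 330.1, 236, 323 and 329.5 in calorie restricted replicates 1 to 5, against 522, 532, 514, 579 and 648 in control replicates 1 to 5. These ranges were far apart, and the difference of -0.94 ± 0.14 had the smallest adjusted p of the member probe sets (0.0114). Probe set 1451314_a_at averaged 256 ± 98.3 in calorie restricted and 431 ± 47.6 in control kidney (-0.84 ± 0.24, adjusted p = 0.0532). Its ranges overlapped through calorie restricted replicate 5, and it passed without calorie restricted replicate 4 or 5 (adjusted p = 0.0369 and 0.0209).

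With 1 array left out, the brightest Vcam1 probe set lost its call when calorie restricted replicate 1, 2 or 3, or the fourth control, was omitted (-0.77 to -1.04 over all 10 omissions, adjusted p up to 0.0619). The call of 1415989_at was kept in each of the 10 omissions. Endothelial cells also express Vcam1: of 10 endothelial markers, all tested, 0 were called. Of these markers 7 were below 0, with a median of -0.15 and a range from -0.65 (Emcn) to 0.29 (Eng). Their summed signal was 11215 to 13014 in calorie restricted and 11274 to 14381 in control kidney. Macrophage and stromal markers, given below with the other cell types, fell in 5 of 14 and 2 of 12 tested cases. Over all genes tested 3.02% were called lower. The part of endothelial or other cells in the Vcam1 values was not tested.

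Il34 encodes interleukin 34, a ligand of the colony-stimulating factor 1 receptor through which tubule cells sustain macrophages. Its single probe set stood at 212, 301, 258, 259 and 370.2 in calorie restricted replicates 1 to 5, against 489.5, 375, 390.1, 699 and 395 in control replicates 1 to 5. The groups did not overlap, with calorie restricted replicate 5 close under control replicate 2. Il34 averaged 279.9 ± 59.5 in calorie restricted and 469.6 ± 136.04 in control kidney (SD, n = 5 each), and the difference was -0.73 ± 0.19 (adjusted p = 0.0423). It was near the threshold: without any 1 of the other 9 arrays the adjusted p was 0.0509 to 0.101, and without calorie restricted replicate 5 it was 0.0197. Il34 was called under 5 of 22 other settings and omissions.

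Tnfrsf12a encodes Fn14, the receptor of the cytokine TWEAK. It stood at 723, 803, 684, 1109 and 1469.8 in calorie restricted replicates 1 to 5, against 1022, 1345, 2025, 2799.8 and 2431 in control replicates 1 to 5. The groups overlapped, since calorie restricted replicates 4 and 5 were above control replicate 1. Tnfrsf12a averaged 958 ± 331 in calorie restricted and 1925 ± 739 in control kidney (SD, n = 5 each), and the difference was -0.97 ± 0.27 (adjusted p = 0.0490). The second probe set differed by -0.73 ± 0.23 (adjusted p = 0.0642). The call of the brightest was lost when any 1 of calorie restricted replicates 1 to 3, or any control but the first, was omitted (-0.82 to -1.08, adjusted p 0.0728 to 0.114).

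The stretches before the transcription start of Tnfrsf12a, a called member, and of Lcn2, the member with the highest Pearson r to it across mice within diets, are shown because the 2 differ in GC boxes and CpG pairs. They are 120 bases that end just before the start, from RefSeq on build GRCm38.p6, 5′ to 3′ along the gene's strand, in lower case with GC boxes (GGGCGG on either strand) in capitals. Tnfrsf12a is at chr17:23677450-23677569 and Lcn2 at chr2:32387740-32387859, both on the minus strand.
Tnfrsf12a: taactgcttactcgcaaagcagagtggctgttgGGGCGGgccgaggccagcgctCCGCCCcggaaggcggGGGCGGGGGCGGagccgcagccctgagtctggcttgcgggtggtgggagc
Lcn2: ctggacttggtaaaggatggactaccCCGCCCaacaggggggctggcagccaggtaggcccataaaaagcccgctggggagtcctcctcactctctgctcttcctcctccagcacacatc
Over the 250 bases before the start, Tnfrsf12a had 5 GC boxes and 15 CpG pairs, and Lcn2 had 1 and 3. The median over 32851 promoters was 6 CpG pairs, and 32.7% held a GC box. The kappa B site (by its usual consensus) and the AP-1 site TGANTCA were searched on both strands. They had 0 matches before Tnfrsf12a, Lcn2, Cd44, the 3 starts of Havcr1 or the 2 of Spp1. These patterns were found in 7.25% and 6.75% of all promoters, and other forms of either site were not searched. These are descriptions of the letters in this window.

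By brightest probe set, 2 of the 8 tested members, Vcam1 and Il34, were lower in every calorie restricted mouse than in any control, and 0 were higher. Over all genes tested 3.69% were lower and 3.8% higher in that way. Among probe sets it was 4 of 16 members lower and 0 higher, beside 3.45% lower and 3.67% higher over all probe sets.

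Among the genes of the regenerative state, Cd44, the hyaluronan receptor, stood at 214, 294, 251, 242 and 239 in calorie restricted replicates 1 to 5. In control replicates 1 to 5 it stood at 378, 241, 296, 495 and 419. The calorie restricted values were close together, and the groups overlapped through control replicate 2. Cd44 averaged 248 ± 29.4 in calorie restricted and 366 ± 100.1 in control kidney (SD, n = 5 each). The difference of -0.52 ± 0.19 did not pass (adjusted p = 0.0987, 95% interval -0.92 to -0.12). The other tested Cd44 probe set differed by -0.39 ± 0.27 (adjusted p = 0.384), and 2 more were below the filter, with no signal over 41.8 in calorie restricted and 36.3 in control kidney. T cells also express Cd44: of 11 T cell markers 10 had a named probe set and 3 passed the filter, with 0 called and Cd3e, Cd3d and Cd4 below it. Their summed signal was 885 to 1238 in calorie restricted and 652 to 1251 in control kidney. Among other leukocytes, macrophage markers fell in 5 of 14 tested cases, B and plasma cell markers in 2 of 7 and neutrophil markers in 0 of 4. Over all genes tested 3.02% were called lower. The part of T cells and other leukocytes in the Cd44 values was not tested.

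Krt19, an intermediate filament keratin of ductal epithelium, stood at 292, 333, 389, 314 and 318 in calorie restricted replicates 1 to 5. In control replicates 1 to 5 it stood at 256, 268, 286, 455 and 322. The calorie restricted values lay within the control range. Krt19 averaged 329 ± 36.3 in calorie restricted and 317 ± 81.0 in control kidney (SD, n = 5 each), with a difference of 0.079 ± 0.16 (95% interval -0.27 to 0.43, adjusted p = 0.796). Its sign turned with median centring of the arrays (-0.018). Markers of the urothelium, which shares this keratin, had 0 of 6 called, with all 6 above 0, a median of 0.29 and Krt14 below the filter. Over all genes tested 3.02% were called lower and 3.08% higher. The part of urothelium in the Krt19 values was not tested.

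Sox9, a transcription factor of regenerating tubule cells, was at or near the dim end of the array. Its brightest probe set stood at 55.5, 61.0, 76.0, 86.2 and 52.9 in calorie restricted replicates 1 to 5, against 88.8, 20.4, 71.0, 114 and 105 in control replicates 1 to 5. The calorie restricted mice lay inside the control range, and the other 2 Sox9 probe sets were dimmer on average. No test was made of Sox9.

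**Figure D2:**
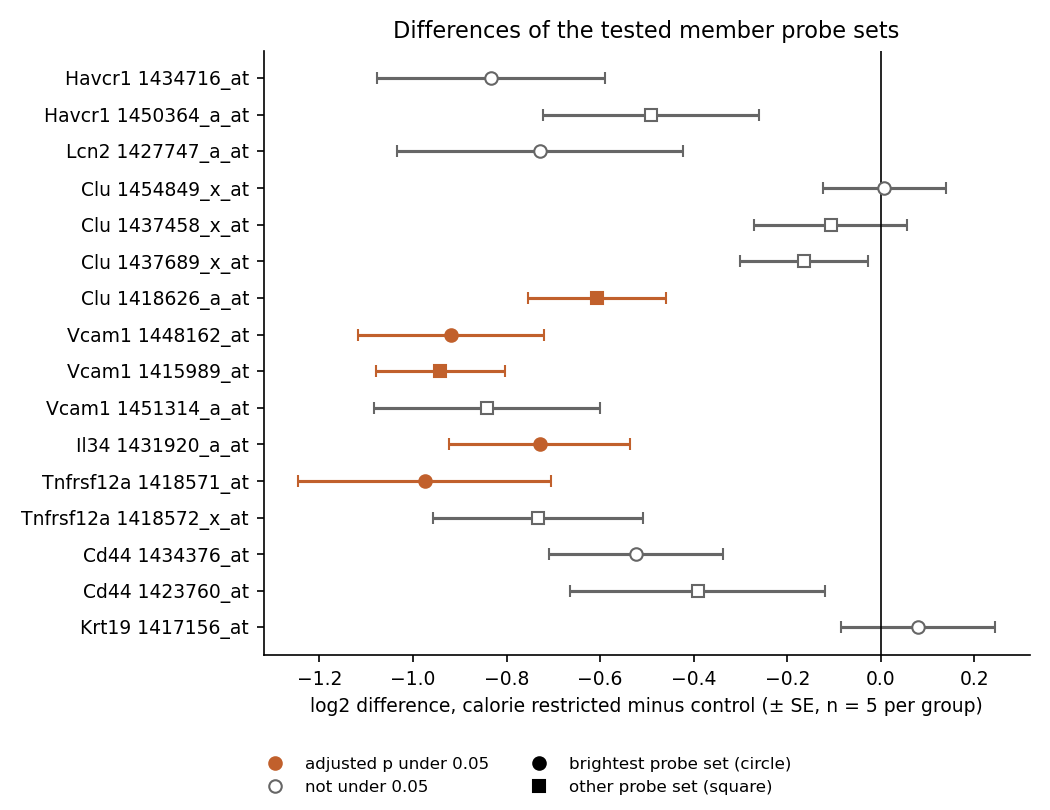
Log2 difference, calorie restricted minus control, ± SE (n = 5 per group) of the 16 tested member probe sets, with filled symbols for an adjusted p under 0.05, circles for a gene's brightest probe set and squares for the others. The 3 Vcam1 probe sets lie together between -0.84 and -0.94, whereas only 1 of the 4 Clu probe sets, at -0.61, stands clear of 0.

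The arrays were not equal in RNA quality, and the members were set beside that measure. The mean log2 ratio of 3' to 5' signal of the Gapdh and Actb control probe sets is larger for shorter RNA or incomplete labelling. It was 1.67 ± 0.46 in calorie restricted and 1.05 ± 0.26 in control kidney (SD, n = 5 each, exact permutation p = 0.0476, 2-sided). That call was lost when any 1 of replicates 1 to 3 of either diet was omitted (exact p 0.0714 or 0.0794). The first 3 calorie restricted replicates had 2.21, 2.01 and 1.75, above all controls, while the last 2 had 1.24 and 1.16, inside the control range of 0.76 to 1.39. With this ratio as a covariate 0 members and 0 member probe sets were called (limma, 9 probe sets of the whole table). The differences were then -1.005 for Vcam1, -0.68 for Il34, -0.85 for Tnfrsf12a, -0.89 for Havcr1 and -0.82 for Lcn2.

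Replicates 4 and 5 of each diet, whose ratios were alike, gave -1.27 for Vcam1, -1.03 for Tnfrsf12a, -0.76 for Il34, -0.97 for Havcr1 and -1.15 for Lcn2. Vcam1 and Tnfrsf12a were called in those 4 arrays (adjusted p = 0.0148 and 0.0343). Control replicates 4 and 5 were above the other controls for Vcam1, Tnfrsf12a and Lcn2. The part of this choice of controls in the differences was not tested. Calorie restricted replicates 4 and 5 against all 5 controls gave -0.75 for Vcam1, -0.50 for Tnfrsf12a and -0.56 for Il34, with 0 members called and 1 probe set in the whole table. Every one of these settings left the sign of the 6 lower members as it was, and the part of RNA quality in the calls was not tested further.

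Between mice of one diet, the members varied by array. Control replicate 4 had the highest control value of 5 of the 8 tested members, control replicate 5 of 2 and control replicate 1 of 1. The lowest control value was that of replicate 1 or 2 for all 8. Calorie restricted replicate 1 had the lowest value of its diet for 6 of the 8 and replicate 5 the highest for 4. Control replicates 4 and 5 also had the highest 3' to 5' ratios of the controls (1.39 and 1.25), and calorie restricted replicate 1 the highest of its diet. For most members, then, the arrays with high ratios were the high ones among controls, and the array with the highest ratio was the low one among calorie restricted mice.

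By brightest probe set, the log2 spread between mice was smaller in calorie restricted than in control kidney for 7 of the 8 members. That held for 46.7% of all genes tested. Lcn2 had an SD of 0.34 in calorie restricted and 0.81 in control kidney on the log2 scale. Cd44 had an SD of 0.17 in calorie restricted and 0.41 in control kidney. Havcr1 was the exception, with 0.48 in calorie restricted and 0.47 in control kidney. The other Vcam1 probe sets had the larger SD in calorie restricted kidney. It was 0.24 against 0.14 in control for 1415989_at, and 0.62 against 0.16 for 1451314_a_at. The other tested probe sets of Havcr1, Clu, Tnfrsf12a and Cd44 had the smaller SD in calorie restricted kidney. The spreads were not tested against each other.

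**Figure D3:**
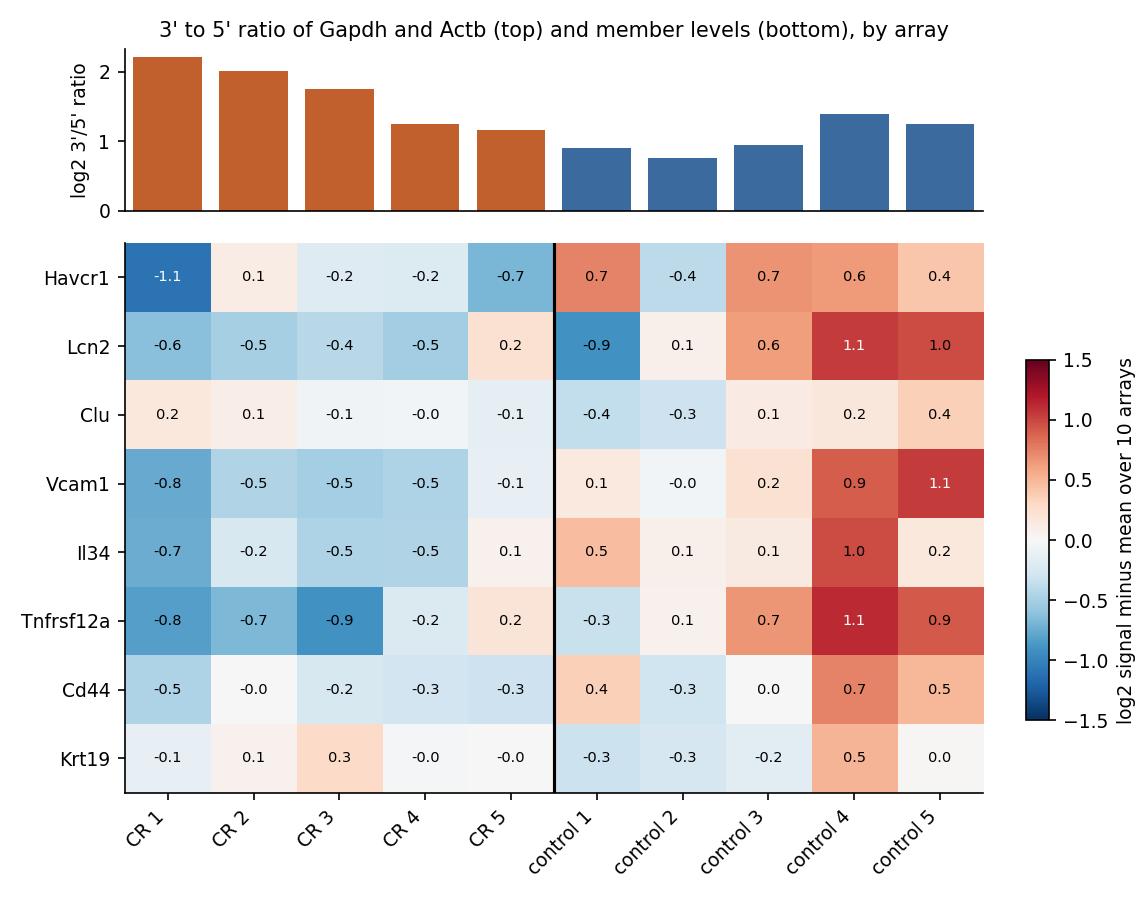
Log2 signal of each tested member minus its mean over the 10 arrays (colour and digits, bottom) under the log2 ratio of 3' to 5' signal of Gapdh and Actb (bars, top), with CR for calorie restricted. Control 4 and control 5 are high for most members. The 3 calorie restricted arrays with the highest ratios are low for Lcn2, Vcam1, Il34 and Tnfrsf12a. CR 4, whose ratio is lower, lies within the range of those 3 for Lcn2, Vcam1 and Il34.

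The 28 pairs of tested members were compared over the 10 arrays after each diet's mean was taken off, with exact permutation of arrays within diet (2-sided). Pearson's r was above 0 in 26 of the 28, with a median of 0.52, and 4 pairs had an unadjusted p under 0.05. The pairs share genes and so are not independent, and pairs of other genes were not measured beside them. The part of RNA quality in these correlations was not tested. Within the 5 calorie restricted mice 16 of the 28 were above 0, against 28 of 28 within the 5 controls, a difference that was not tested. Of the 12 pairs below 0 in calorie restricted mice, 7 were pairs with Clu. None passed after Benjamini-Hochberg adjustment over the pairs. Lcn2 and Tnfrsf12a came closest (r = 0.90, exact p = 0.00188, adjusted p = 0.0525). Spearman's rho for that pair was 0.79 (exact p = 0.0156, adjusted p = 0.128), and r was 0.84 without the 2 arrays farthest from the Lcn2 median. Vcam1 and Tnfrsf12a had an r of 0.80 (exact p = 0.0206, adjusted p = 0.226) and a rho of 0.81 (exact p = 0.0128, adjusted p = 0.128), and r was 0.74 without 2 arrays. Havcr1 did not follow Lcn2 (r = -0.025, exact p = 0.959, adjusted p = 0.959).

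For each tested member the other gene with the most similar diet-centred profile over the 10 arrays was named, out of 12188. These were Nckap1l for Havcr1 (r = 0.94), Fam241a for Lcn2 (0.97), Tppp3 for Clu (0.97), Rela for Vcam1 (0.96), Heatr3 for Il34 (0.96), Smarcd3 for Tnfrsf12a (0.96), Wdr5 for Cd44 (0.97) and Ino80 for Krt19 (0.94). Each is the highest of 12188 values over 10 arrays, so its size carries no test. None of the 8 was itself called between the diets, with differences from -0.33 (Tppp3) to 0.18 (Wdr5).

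Ligands, receptors and partners of the members did not share 1 direction. Of 34 listed genes 25 were tested, of which 3 fell and 0 rose, 9 were below 0, and the median was 0.076. Among all genes tested, 3.02% were called lower and 3.08% higher, with a median of -0.0052. Itgb1, the beta chain of the integrin that binds Vcam1, averaged 988 ± 218 in calorie restricted and 1576 ± 263 in control kidney (SD, n = 5 each). Its difference was -0.68 ± 0.16 (adjusted p = 0.0276), and its second tested probe set fell by 0.85 on the log2 scale (adjusted p = 0.0268). Calorie restricted replicates 4 and 5, with the lower 3' to 5' ratios, had the highest Itgb1 of their diet (1207.5 and 1245, against 811 to 853 in replicates 1 to 3). With replicates 4 and 5 of each diet alone the difference was -0.24.

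Birc3 and Birc2 encode the cellular inhibitors of apoptosis that bind the tumour necrosis factor receptor-associated factors below Tnfrsf12a. Birc3 stood at 823, 949, 783, 896 and 791 in calorie restricted replicates 1 to 5, against 1199, 1204, 1134, 1537 and 1790.3 in control replicates 1 to 5. The groups did not overlap, and Birc3 fell (-0.68 ± 0.13, adjusted p = 0.0198, -0.98 in replicates 4 and 5 alone). Birc2 fell as well (-0.61 ± 0.15, adjusted p = 0.0346), but by 0.42 on the log2 scale in replicates 4 and 5 alone, where it was not called. Averaged with its second, dim probe set, Birc3 differed by -0.12 and was not called (adjusted p = 0.860).

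Apart from Itgb1, no change was called in the receptor genes tested for Il34, Vcam1, Lcn2 and osteopontin that are named here. Csf1r, the receptor of Il34, averaged 5627 ± 1054 in calorie restricted and 5653 ± 1684 in control kidney (SD, n = 5 each). That is its brightest probe set, with a difference of 0.017 ± 0.18 (95% interval -0.38 to 0.41). Its other tested probe sets, 1419873_s_at and 1423593_a_at, differed by -0.31 ± 0.19 and -0.29 ± 0.15 and were not called (adjusted p = 0.303 and 0.221). Itga4, which pairs with Itgb1 to bind Vcam1, differed by 0.22 ± 0.17 (95% interval -0.15 to 0.59). The Lcn2 receptor Slc22a17 differed by 0.25 ± 0.13 (-0.029 to 0.53), and Itgav, a chain of osteopontin receptors, by 0.097 ± 0.13 (-0.19 to 0.38). A dimmer Itgav probe set, 1421198_at, differed by -0.51 ± 0.22 and was not called (adjusted p = 0.164). The TWEAK gene Tnfsf12 shares its probe sets with other genes in the annotation and was not analysed.

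A second list held 37 other genes of injured tubule cells, of which 30 were tested. Of these 4 fell and 1 rose, 26 had a difference below 0, and the median was -0.35. This list was chosen with earlier results of these data known, so its counts are a description and no independent evidence. The shares over all genes tested were 3.02% lower and 3.08% higher, with a median of -0.0052. Sox4, a transcription factor related to Sox9, averaged 1082 ± 188 in calorie restricted and 1988 ± 390.1 in control kidney (SD, n = 5 each, -0.87 ± 0.15, adjusted p = 0.0152). It was called in each of the 10 omissions of 1 array. Its 4 other tested probe sets, all dimmer, were not called and lay from -0.47 to 1.16. The chemokine Ccl2 averaged 100.4 ± 20.8 in calorie restricted and 234 ± 98.1 in control kidney (-1.17 ± 0.26, adjusted p = 0.0263). Its calorie restricted mean was under the median signal of every array, and Ccl2 passed the filter only through its control values. Ccn1, Cxcl1, S100a10, Vim and Cd24a were not called by their brightest probe set. In each, 1 dimmer probe set was called lower (-1.07, -1.43, -0.62, -0.65 and -0.54 in that order, adjusted p 0.0198 to 0.0431). The other tested probe sets of these genes were not called.

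Ccn2, connective tissue growth factor, fell (-0.55 ± 0.13, adjusted p = 0.0304), as did the phosphatidylserine binding protein Anxa5 (-0.53 ± 0.13, adjusted p = 0.0339). In replicates 4 and 5 alone Ccn2 differed by -0.60 and Anxa5 by -0.24. Egfr, the epidermal growth factor receptor, rose by its brightest probe set (0.46 ± 0.12, adjusted p = 0.0409), while its 4 other tested probe sets lay from -0.10 to 0.18 and the mean of its probe sets was -0.18. Of the genes called in these 2 lists, Birc3 lost its call without calorie restricted replicate 1 alone (adjusted p = 0.0502). Itgb1, Birc2, Ccl2, Ccn2, Anxa5 and Egfr each lost theirs without any 1 of calorie restricted replicates 1, 2 and 3 (adjusted p 0.0556 to 0.0991) or control replicate 2 (0.0503 to 0.0728). Each of these 6 also lost it without 1 or more of control replicates 3 to 5 (adjusted p 0.0533 to 0.0826). Once that RNA measure entered the model, 0 genes of either list were called.

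**Figure D4:**
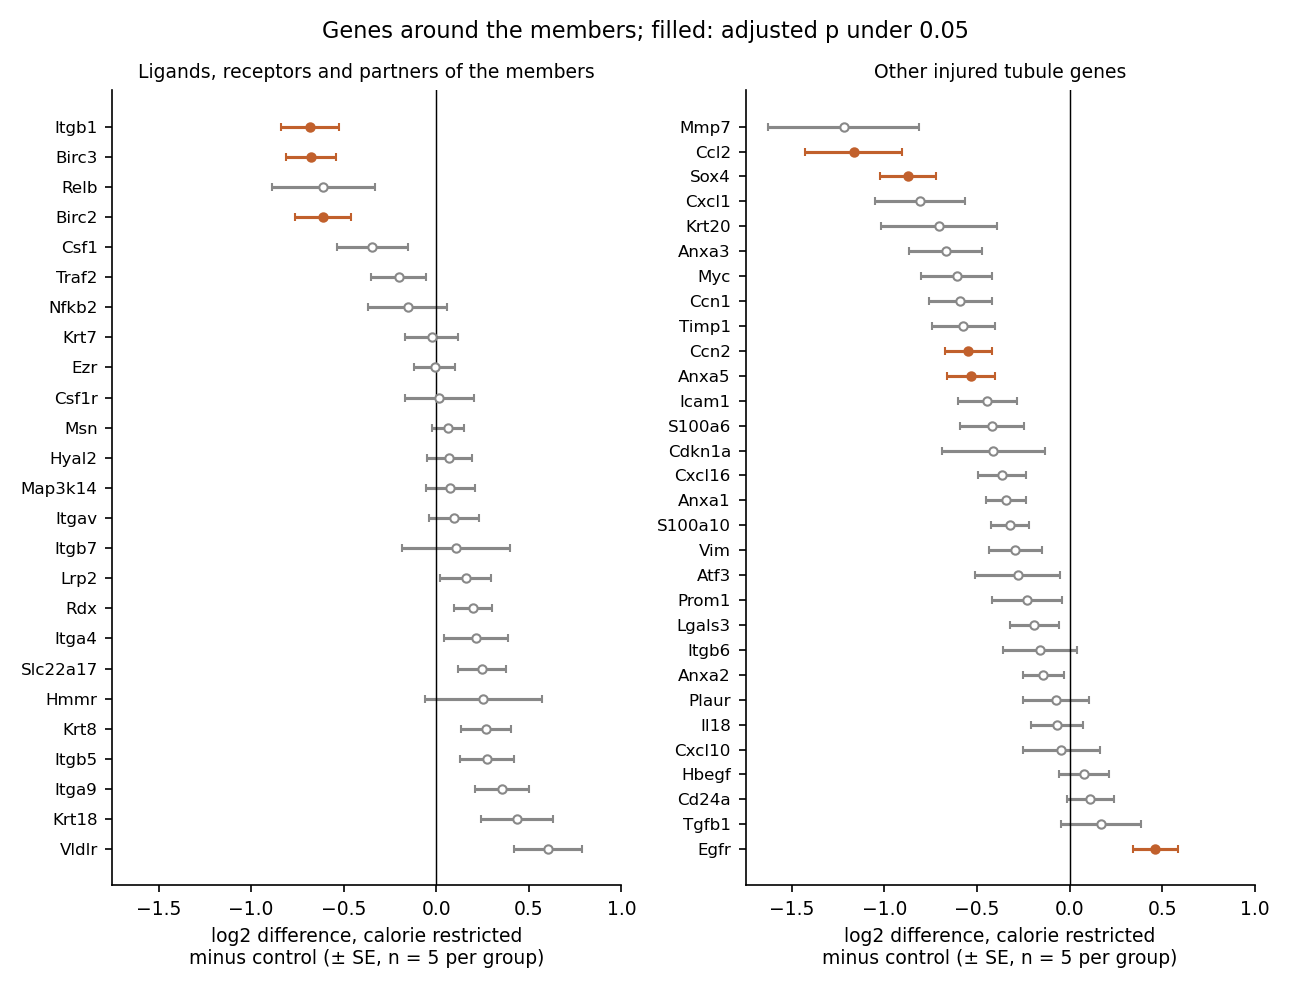
Log2 difference, calorie restricted minus control, ± SE (n = 5 per group) of the tested ligands, receptors and partners of the members (left) and of other injured tubule genes (right), with filled symbols for an adjusted p under 0.05. Of the other injured tubule genes 26 of 30 lie below 0, against 9 of 25 of the partners. Both lists were chosen with earlier results of these data known.

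Markers of other kidney cells were read from the same arrays, which carry kidney transcripts as labelled (all 16 named proximal tubule markers passed the filter). For the counts that follow, 3.02% of all genes tested were called lower and 3.08% higher. Proximal tubule markers rose in 9 of 16 cases, with a median of 0.38. Their summed signal was 259659 to 306956 in calorie restricted and 187579 to 224487 in control kidney. Macrophage markers fell in 5 of 14 tested cases, with 13 below 0, a median of -0.67 and Itgam below the filter. Their summed signal was 17180 to 28700.2 in calorie restricted and 23980 to 43466 in control kidney. B and plasma cell markers fell in 2 of 7 tested cases, adipocyte markers in 2 of 4, stromal markers in 2 of 12 and podocyte markers in 2 of 6, with medians of -0.996, -0.79, -0.25 and -0.32 in that order, and with Cd79b and Lep below the filter. Their summed signals were 10335 to 27624 in calorie restricted and 27945 to 50705 in control kidney for B and plasma cells. For adipocytes they were 6475 to 11658 in calorie restricted and 13488 to 19233 in control kidney. Stroma had 16253 to 20062 in calorie restricted and 18428 to 27229 in control kidney. Podocytes had 4801 to 5554 in calorie restricted and 5389.7 to 8416.5 in control kidney. The part of each of these cell types in the members' differences was not tested.

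**Figure D5:**
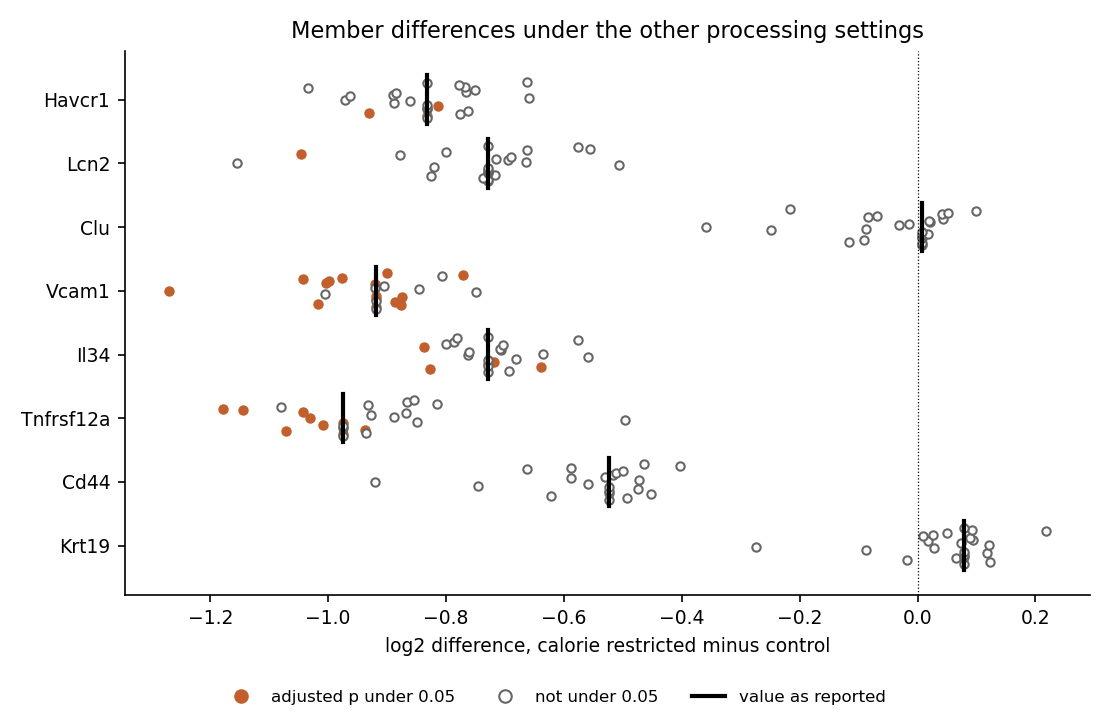
Log2 difference, calorie restricted minus control, of each tested member under every other processing setting and with each array left out (points, filled for an adjusted p under 0.05) beside the reported value (black line). Vcam1 is filled most often, 15 of 23 times, and the points of Clu and Krt19 lie on both sides of 0.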

How the data were processed

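The deposited values are the authors' MAS5 signal intensity per probe set, on a linear scale. Per the submitters' processing notes they came from MAS5 and Affymetrix Expression Console, with no version stated in the sources used here. A trimmed mean of each array was 500.0, while medians ran from 115 to 136.2. The platform annotation gave 34958 probe sets 1 symbol, 932 several and 9211 none.

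Signals under 1 were set to 1 and log2 was taken. The 64 Affymetrix control probe sets were left out. Probe sets with a mean log2 of at least 6.81 entered 1 limma 3.58.1 fit (R 4.3.3, eBayes with intensity trend, 2-sided). The fit was tested on simulated data. With 5 arrays per group precision is limited, and p-values reflect variation among these mice alone.

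The members and lists were chosen with earlier results of these data known. Named genes were all members, the gene most like each, and in the 2 related lists those past the threshold plus direct ligands or receptors of members.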

Additional observations from a re-analysis of the deposited data

Results flagged for a closer look

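Dixon's test was run on log2 signal in 42 groups of 5 values (each member probe set in each diet). In 3 of them 1 mouse lay far from the other 4, which chance gives in about 1 in 20 groups. Havcr1 was low in control replicate 2, at 442 against 773 for the next control (gap over range of log2 signal 0.712). Lcn2 was high in calorie restricted replicate 5, at 3030.4 against 1937 for the next mouse of that diet (0.755). Sox9, below the filter, was low in control replicate 2, at 20.4 against 71.0 (0.726).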

How the results depend on the processing

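The 3 lower members became 0 with no filter on signal, 1 with quantile normalization, 0 with eBayes without trend, 0 with the 3' to 5' ratio as covariate, 0 with only mice 4 and 5 of the restricted diet kept beside every control and 1 with probe sets averaged per gene. Leaving out 1 array gave 0 to 3. The 5 lower member probe sets became 1 with no filter, 3 with quantile normalization, 8 with median centring, 1 without trend, 8 with array weights, 0 with the covariate, 0 with only mice 4 and 5 of the restricted diet kept beside every control and 3 with only mice 4 and 5 of both diets, and 1 to 7 with 1 array left out. All 1371 probe sets called became 287 with no filter, where more probe sets were tested, 764 with quantile normalization, 243 without trend, 2292 with array weights, 9 with the covariate, 1 with only mice 4 and 5 of the restricted diet kept beside every control and 198 with replicates 4 and 5 alone, and 125 to 2481 with 1 array left out. The 3 lower partners became 1 with no filter, without trend, with replicates 4 and 5 alone or with the mean of probe sets, and 0 with the covariate or with only mice 4 and 5 of the restricted diet kept beside every control, and 0 to 3 with 1 array left out. The 0 higher partners became 1 with array weights and 0 to 1 with 1 array left out. The 4 lower other injured tubule genes became 1 with no filter, 10 with median centring, 2 without trend, 9 with array weights and 0 with the covariate or with only mice 4 and 5 of the restricted diet kept beside every control, and 1 to 10 with 1 array left out. The 1 higher became 0 in all of these but array weights, in replicates 4 and 5 alone and with the mean of probe sets, and was 0 to 1 with 1 array left out. The difference in 3' to 5' ratio was 0.49 to 0.75 with 1 array left out. Except where a change in tests or arrays is named, the cause was not tested.

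Diets shared replicate numbers, but same-numbered mice did not deviate together (r -0.14 to -0.087). With the replicate block 127 probe sets were called, with 2 members, 3 member probe sets, 0 partners and 1 other injured gene lower and 0 higher.

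The sign of Clu turned with quantile normalization (-0.12), median centring (-0.090), the covariate (-0.25), only mice 4 and 5 of the restricted diet kept beside every control (-0.088), replicates 4 and 5 alone (-0.36) and the mean of probe sets (-0.22), and ran from -0.084 to 0.099 with 1 array left out. Its probe set 1437458_x_at ran from -0.21 to 0.011. Krt19 turned with median centring (-0.018), the covariate (-0.087) and replicates 4 and 5 alone (-0.27), and Egfr with the mean of probe sets (-0.18). Havcr1 passed under 3 of 23 alternatives. The median difference of the members was -0.95 to -0.53 over 23 alternatives.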
